A study of Mus musculus with 10 samples.

Results

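The genes described here are 40 interferon-stimulated genes outside the guanylate-binding protein and immunity-related GTPase families, taken by gene symbol from a fixed list. The symbols of 39 were found among the 19025 genes of the RNA-seq tables, and Herc6 was not found under that symbol and is not analysed here. The 39 are 11 nucleic acid sensors, 3 factors of the response, 3 genes of the ISG15 system, 12 antiviral effectors, 5 genes of the PARP complex and nuclear bodies, and 5 other induced genes. Mx1 and Mx2 are on the list although their products are themselves dynamin-like GTPases.

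The study profiled 10 mouse libraries, 2 in each of 5 groups, to compare gene expression in ES cells, B cells and T cells. The ES cells were the C57BL/6 line B6N-22, kept with leukaemia inhibitory factor on feeder fibroblasts that mitomycin C had stopped from dividing, and that line is a single line. The B cells (B220-positive) and CD4 T cells came from spleens of C57BL/6 mice aged 6 to 8 weeks and were sorted with magnetic beads to a purity above 98%. The Th2 cultures were T cells kept for 5 days with IL-2 at 15 ng/ml and IL-4 at 10 ng/ml, and the TSA-treated Th2 cultures also received trichostatin A (TSA), a histone deacetylase inhibitor, at 10 nM from day 2 for 3 days. Nothing in the labels ties the libraries of a group to different mice or culture dishes, and p-values therefore cover only the spread between these libraries, which may be technical.

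Interferons bind receptors that activate Jak kinases and STAT proteins. A complex that holds Stat2 and Irf9 then binds the interferon-stimulated response element, a repeat of GAAA blocks, in promoters of many interferon-stimulated genes. The products of the genes described here sense foreign nucleic acid, attach the ubiquitin-like protein ISG15 to targets, or block steps of viral replication. Many cells also transcribe these genes at a low level without infection.

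The promoters of these genes hold the response element more often than promoters at large. In RefSeq windows of GRCm38.p6, from 250 bases before to 50 after each start, the letters GAAANNGAAA (N is any base) were searched on both strands, and overlapping matches were each counted. Windows were given for 30 of the 40 listed genes, and 14 of these (46.7%) held a match, against 1079 of 27025 genes (3.99%). The other 10 were Zbp1, Mx1, Mx2, Usp18, Oas2, Dhx58, Rtp4, Parp9, Parp14 and Ifi27. By window the counts were 15 of 36 (41.7%) against 1131 of 32851 (3.44%). Among the sensors 6 of 8 held it and among the effectors 6 of 10, while it was found for 0 of 3 genes of the PARP complex and nuclear bodies and 0 of 3 other induced genes. The promoters of 5 genes that differed in their outcome under TSA are printed, each as the 150 bases before the start, 5′ to 3′ on the gene's own strand, with the matching bases in capitals.
Isg15, chr4:156200819-156200968, minus strand: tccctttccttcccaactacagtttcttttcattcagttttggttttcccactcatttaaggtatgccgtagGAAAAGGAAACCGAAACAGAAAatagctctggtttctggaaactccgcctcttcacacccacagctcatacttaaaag
Oas1a, chr5:120907526-120907675, minus strand: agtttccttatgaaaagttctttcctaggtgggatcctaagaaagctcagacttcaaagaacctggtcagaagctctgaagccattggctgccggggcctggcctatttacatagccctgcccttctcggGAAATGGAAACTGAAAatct
Oas3, chr5:120777660-120777809, minus strand: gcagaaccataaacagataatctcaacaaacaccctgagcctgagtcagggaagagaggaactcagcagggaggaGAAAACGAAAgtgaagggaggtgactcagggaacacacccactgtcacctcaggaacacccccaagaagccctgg
Ifitm2, chr7:140955962-140956111, minus strand: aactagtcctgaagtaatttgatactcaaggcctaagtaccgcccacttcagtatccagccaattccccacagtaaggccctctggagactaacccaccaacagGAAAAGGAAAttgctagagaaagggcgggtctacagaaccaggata
Ifit1, chr19:34640739-34640888, plus strand: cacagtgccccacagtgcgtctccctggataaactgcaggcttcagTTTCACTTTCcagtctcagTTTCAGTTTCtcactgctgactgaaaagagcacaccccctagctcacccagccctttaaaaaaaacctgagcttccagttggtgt
Isg15 held 3 overlapping matches, Oas1a 2 overlapping matches, and Oas3 and Ifitm2 1 each. Ifit1 held 2 separate matches on the opposite strand, which therefore read TTTCNNTTTC. Counted with the start as 0, the matches began at -78, -72 and -66 in Isg15, at -20 and -14 in Oas1a, at -75 in Oas3, at -46 in Ifitm2 and at -104 and -85 in Ifit1. Among genes with a window, it was found for 3 of 6 that rose with TSA, 2 of 3 that fell and 9 of 20 without a call. A match is a description of these letters, not of a bound site.

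**Figure D1:**
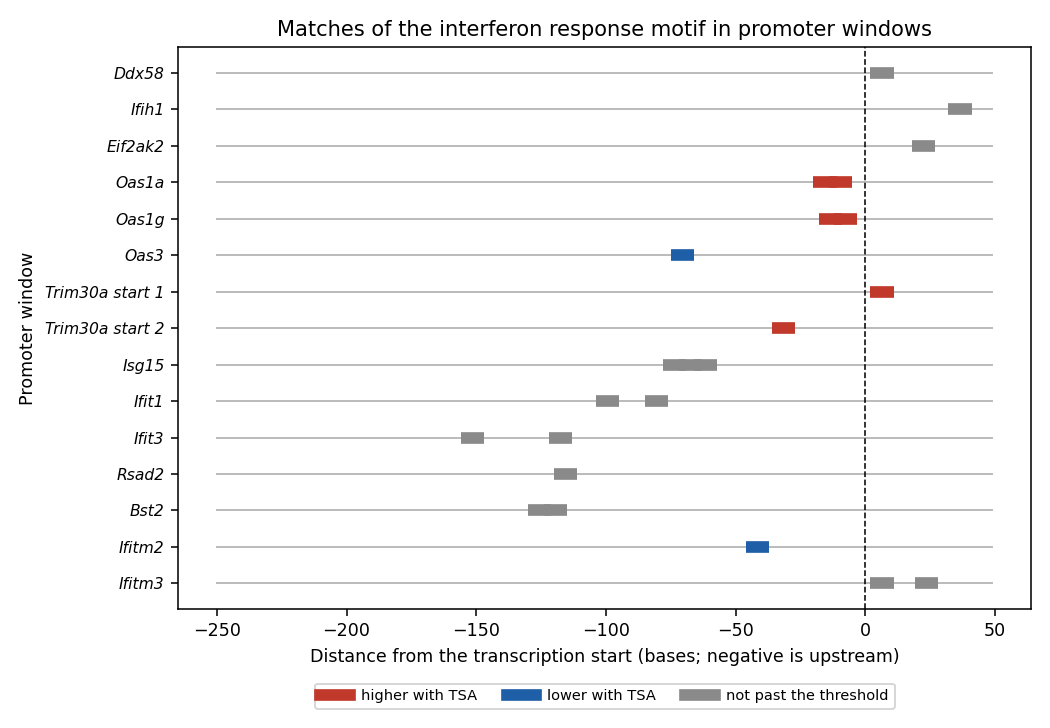
Each row is 1 RefSeq promoter window with a match of GAAANNGAAA on either strand, for 15 windows of 14 genes. The horizontal axis is the distance from the transcription start in bases, each block is a match of 10 bases, and the colour gives the gene's call under TSA, so that red, blue and grey rows all occur.

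Values are FPKM, fragments counted per transcript length and per library total, so levels can be compared between genes. Summed FPKM ran from 405438.5 to 521872.1 per library, and 9652 to 11456 genes reached 1 FPKM. No source used here gives read numbers, so the depth behind each value is unknown. Within the ES, B and CD4 T groups the 2 libraries differed little (SD of the log2 ratio 0.034, 0.0347 and 0.0367, against 0.26 for Th2 and 0.298 for TSA-treated Th2). Their scatter followed level as that of reads sampled at 1 depth would (the depth it implies varied 1.51-, 1.37- and 1.36-fold over 5 bins of level, against 8.21- and 8.34-fold), and each pair was counted as 1 sample. The 4 Th2 tables repeat 1 value per symbol and the other 6 hold a value per transcript, and ribosomal protein genes took 8.51% to 12.1% of summed FPKM in the other 6, 17.1% and 18.7% in Th2 and 22.0% and 22.4% in TSA-treated Th2. Kind of table and Th2 culture cannot be told apart. In bulk RNA, fewer cells of a type and less RNA per cell cannot be told apart either. The 8 T cell markers were present in CD4 T and Th2 libraries (summed 2550 and 2565 FPKM in CD4 T, 1837 and 1937 in Th2, 1673 and 1826 with TSA). By limma 7 of 8 Th2 markers were higher in Th2 than in CD4 T cells, against 16.9% of all genes.

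Across the 5 groups, lymphocytes fresh from the spleen carried most of this programme and ES cells the least. The summed level of the 39 genes was 547 and 558 FPKM in ES cells, 1403 and 1399 in B cells, 1607 and 1603 in CD4 T cells, 993 and 1066 in Th2 cultures and 1249 and 1380 with TSA. A mean of 10 FPKM or more was reached by 6 genes in ES cells, 25 in B cells, 32 in CD4 T cells, 19 in Th2 cultures and 20 with TSA. CD4 T cells had the highest mean for 17 genes and B cells for 11. The TSA-treated cultures had it for 6 (Isg15, Oas1g, Zbp1, Bst2, Ifi35 and Ifi27), untreated Th2 cultures for Isg20, Oas3 and Ifitm2, and ES cells for Ifitm1 and Ifitm3. ES cells had the lowest mean for 29 genes.

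**Figure D2:**
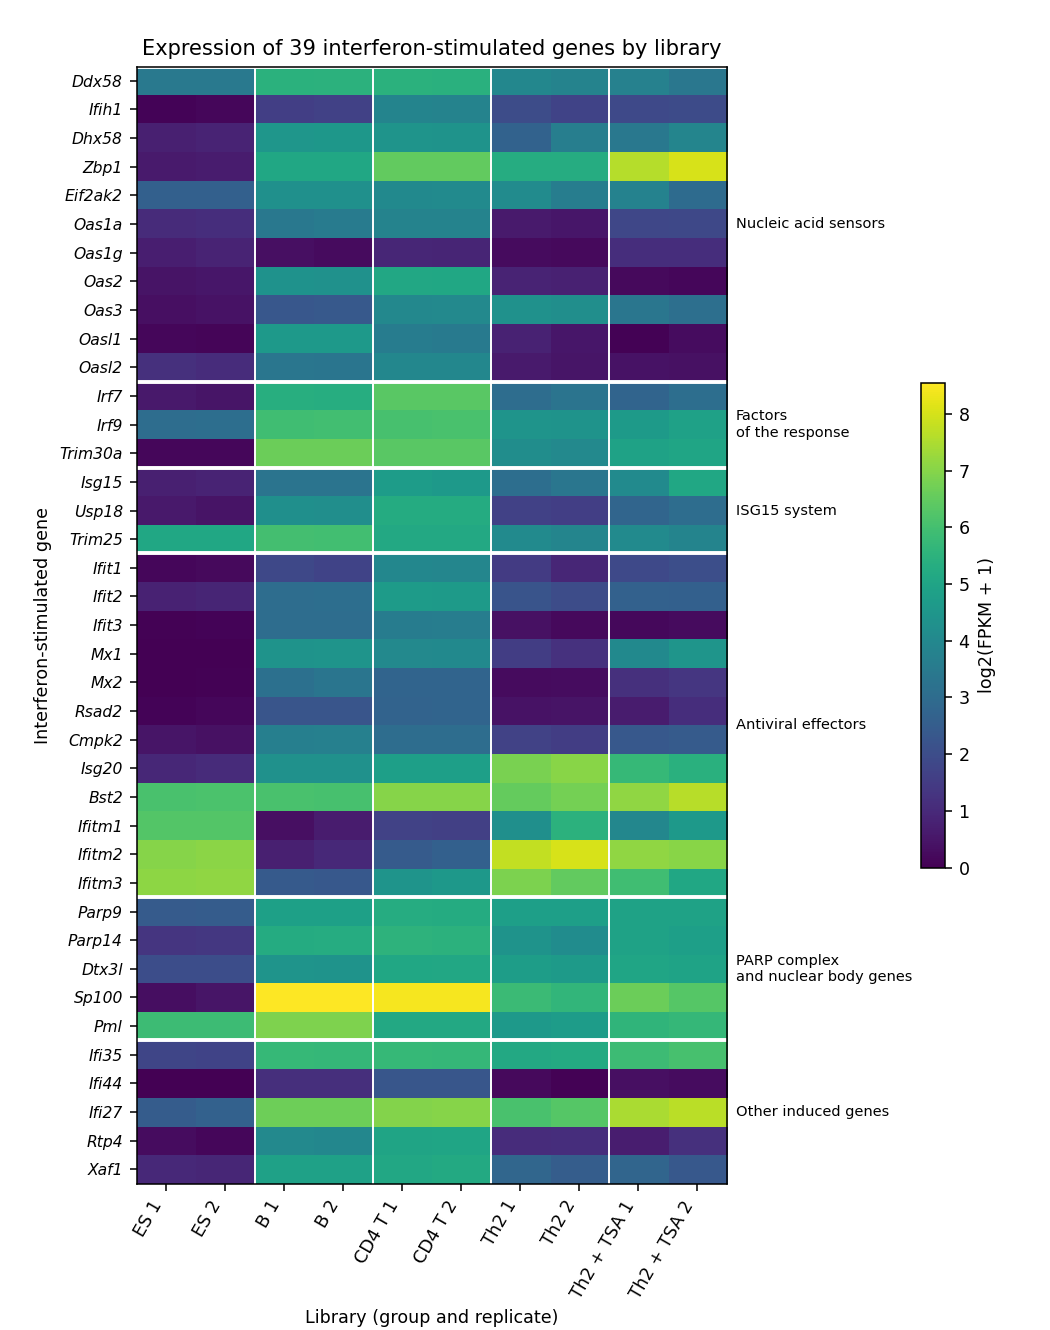
Colour gives log2(FPKM + 1) for the 39 genes (rows, grouped by role) in the 10 libraries (columns, 2 per group). The ES columns are dark for most genes, the B and CD4 T columns bright, and Ifitm1 to Ifitm3 run the other way, with their lowest values in B cells.

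In the ES cells 3 genes that limit viral entry were high while most of the list was near 0. Ifitm1, Ifitm2 and Ifitm3, membrane proteins that block fusion of viruses with the cell, stood at 76.5 and 75.1, 127 and 133, and 137 and 140.2 FPKM in ES cells. In B cells the same genes stood at 0.28 and 0.57, 0.68 and 0.98, and 4.38 and 4.08 FPKM. Bst2, the tether that holds budding virions at the cell surface, had 66.9 and 69.2 FPKM in ES cells, and Pml, the scaffold of nuclear bodies, 56.8 and 57.2. Mx1 was listed at 0 in both ES libraries, and the highest ES value of Ifit1, Ifit3, Mx2, Rsad2, Ifih1, Ifi44 and Trim30a was 0.16 FPKM. The 8 fibroblast markers summed to 966 and 972 FPKM in the ES libraries and to 2.48 FPKM or less in every other library, and their part in the ES values was not tested.

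Between single samples there is no test, and a rule of size was used: a log2 difference of 2 or more on log2(FPKM + 1), where the higher of the 2 samples has 5 FPKM or more. By this rule 29 of 39 genes (74.4%) were higher in CD4 T than in ES cells, against 10.8% of all genes, and the 3 Ifitm genes were lower, against 11.9% of all genes. The median difference was 3.53, against -0.16 over all genes. B cells had 26 genes (66.7%) above ES cells, against 9.45% of all genes, and the same 3 below, against 13.4%, with a median of 2.48 against -0.30. Sp100, a nuclear body protein, differed most from ES cells, at 0.25 and 0.40 FPKM there, 374 and 372 in B cells and 348 and 345 in CD4 T cells.

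Few genes separated CD4 T from B cells by this rule. In all, 3 genes were higher in CD4 T cells (7.69%), against 2.56% of all genes, and 0 were lower, against 1.7%, and the median difference was 0.49, against 0.05 over all genes. Ifih1, the sensor of long double-stranded RNA, had 13.4 and 13.1 FPKM in CD4 T cells and 2.03 and 2.16 in B cells, a log2 difference of 2.20. Ifit1, which binds RNA that lacks the host's cap methylation, had 14.4 and 14.1 against 2.58 and 2.32, a difference of 2.15. Ifitm3 had 20.7 and 22.7 against 4.38 and 4.08, a difference of 2.12. The count was 0 with a pseudocount of 5 and 1 with quantile normalization or median-ratio scaling. The CD4 T libraries held the 8 B cell markers at 5.60% and 5.68% of their level in B cells, and 9 macrophage markers summed to 498 and 494 FPKM there and to 143 and 145 in B cells. Their part in these values was not tested.

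Th2 cultures had less of the programme than CD4 T cells. With limma, at an adjusted p below 0.05, 30 of 39 genes (76.9%) were lower, against 38.1% of all genes, and 4 (10.3%) were higher, against 16.9%. The median was -1.55, against -0.28 over all genes, and quantile normalization and median-ratio scaling moved the latter to 0.02 and -0.04, so a difference near -0.3 is close to that of a typical gene. Of all calls 30.7% were higher, and 50.3% and 45.01% were with these scalings. Quantile normalization called 26 and median-ratio scaling 24 of the 39 lower, and both lost Dtx3l, Parp9 and Pml, the first also Oas1g and the second also Zbp1, Ifi35 and Ifi27. Ifit3, Oas2, Oasl1, Oasl2, Rsad2 and Ifi44 entered the test only through ES, B or CD4 T libraries and were lower by that choice. Of the other 33 genes 24 were lower. The median of -1.55 includes these 6 genes and was not taken without them.

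Factors and genes of the ISG15 system were among those that fell. Irf7, the master factor of the type I interferon response, had 81.4 and 82.0 FPKM in CD4 T cells and 7.31 and 8.76 in Th2 cultures, and it fell by 3.20 (SE 0.22, limma adjusted p = 0.00407). Oas2, which makes the oligoadenylate messenger that activates RNase L, had 33.6 and 32.8 against 0.82 and 0.74 FPKM, given as a description since it entered the test only through other libraries. Usp18, the protease that removes ISG15 and dampens the receptor, went from 37.5 and 37.7 to 2.16 and 1.98 FPKM and fell by 3.65 (SE 0.17, limma adjusted p = 0.00249). No library of either group overlapped the other for these 3 genes. Leaving out the 6 genes that entered only through other libraries, 5 of 8 sensors, 3 of 3 factors, 2 of 3 genes of the ISG15 system, 5 of 10 effectors, 5 of 5 genes of the PARP complex and nuclear bodies and 4 of 4 other genes were lower, against 38.1% of all genes. Over all 11 sensors the median difference was -1.55, the same as over the 39 genes. Both medians include the genes that entered only through other libraries, 3 of them sensors.

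The higher genes were all effectors. Isg20, a nuclease that degrades viral RNA, had 27.2 and 27.2 FPKM in CD4 T cells and 112 and 128.5 in Th2 cultures, and it rose by 2.10 (SE 0.18, limma adjusted p = 0.00588). Ifitm2 had 4.46 and 5.16 against 215 and 258 FPKM and rose by 5.35 (SE 0.15, limma adjusted p = 0.00105). Ifitm3 went from 20.7 and 22.7 to 114 and 89.1 FPKM, and Ifitm1 from 2.20 and 2.10 to 18.2 and 44.1, rises of 2.17 and 3.22 with limma adjusted p = 0.0321 and 0.0341. The Th2 libraries lay above both CD4 T libraries in each case. Ifitm1 did not pass with a pseudocount of 5 or with no filter on low values. Isg15, Dhx58, Bst2, Eif2ak2 and Oas3 did not pass the test, with differences of -1.43, -1.22, -0.35, -0.19 and 0.26, of which Eif2ak2 turned positive under both scalings and Bst2 under median-ratio scaling.

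Markers of other cells fell beside these genes. The 9 macrophage markers summed to 498 and 494 FPKM in CD4 T and to 9.13 and 9.13 in Th2 libraries. Most of the Th2 sum was Emr1, at 6.42 and 5.66, and Cd68, at 2.58 and 3.42. In the same Th2 libraries C1qa, C1qb, C1qc, Vcam1 and Marco were at 0 in both and Csf1r at 0.01 and 0. The 6 markers of plasmacytoid dendritic cells, which produce much interferon, summed to 158 and 156 against 2.69 and 1.56 FPKM, with Siglech at a mean of 79.0 in CD4 T. Siglech, C1qb and Marco were at 0 in all 4 Th2 tables. Such a 0 can also be a failed match of names, and these genes were not tested here. The B cell markers went from 276 and 280 to 4.45 and 6.46 FPKM. The part of these cells in the differences was not tested. The CD4 T group is 1 sample here and was assumed to vary like the Th2 groups. Without the second Th2 library 2 of the 39 genes were called higher, and 20 lower.

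**Figure D3:**
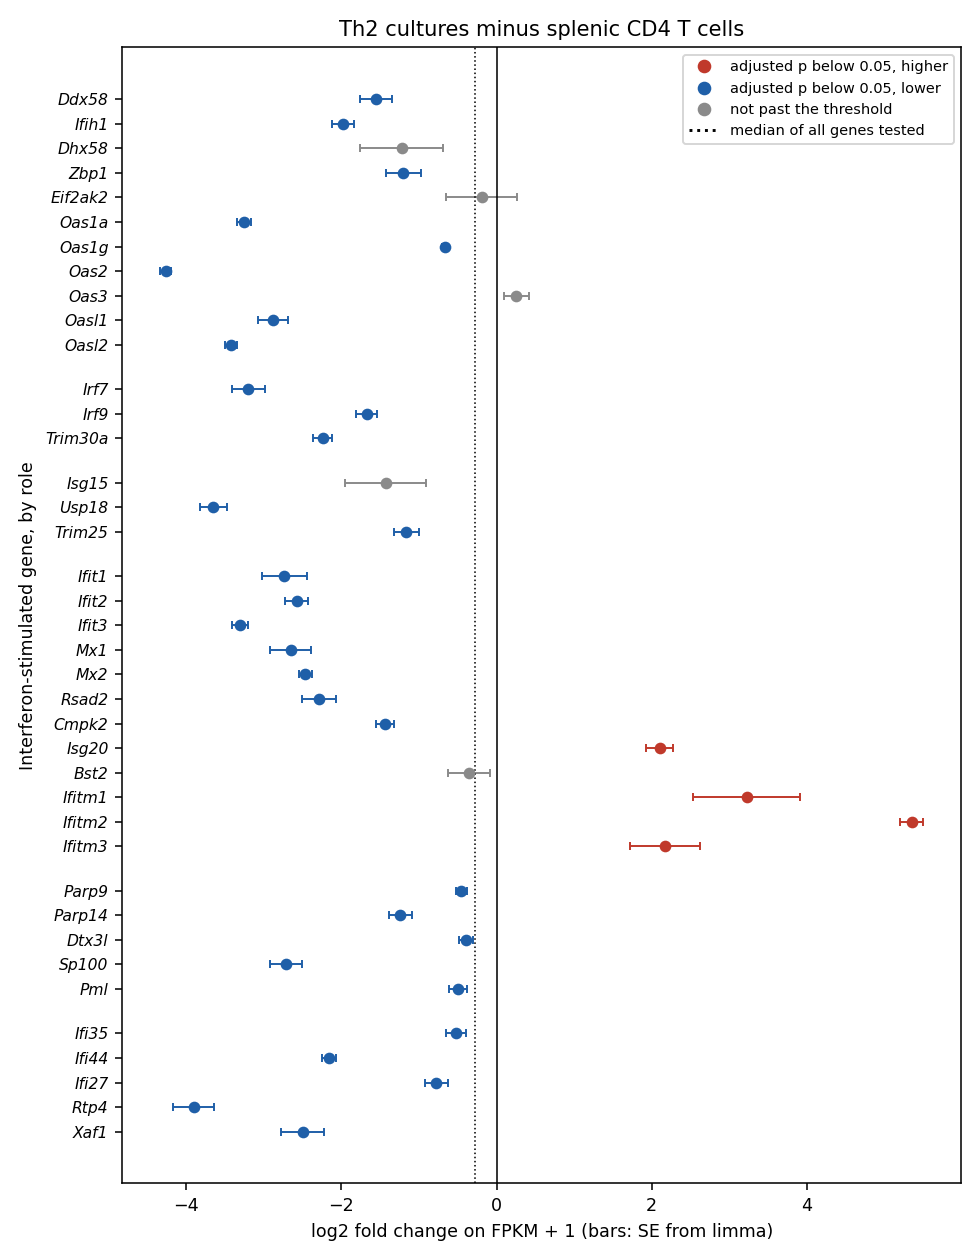
Points give the log2 difference of untreated Th2 cultures from CD4 T cells on FPKM + 1 for each gene, bars the SE from limma, and colour the call at an adjusted p of 0.05. The dotted line is the median of all genes tested, -0.28; 30 points are blue and lie left of it, and Isg20 and the 3 Ifitm genes lie to the right.

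With TSA a subset of the programme rose, a smaller one fell and many genes had no call. With limma 11 of 39 genes (28.2%) rose, against 9.26% of all genes, and 4 (10.3%) fell, against 4.14%. The genes that rose were Zbp1, Oas1a, Oas1g, Trim30a, Usp18, Mx1, Mx2, Cmpk2, Pml, Ifi35 and Ifi27, and those that fell were Oas2, Oas3, Isg20 and Ifitm2. Oas1g entered the test only through the treated libraries, where it is high, so the filter favoured its place among the 11. The median log2 change over the 39 was 0.37, against 0.02 over all genes. Both TSA libraries lay above both untreated ones for 22 genes (56.4%), against 36.7% of all genes, and below for 8 (20.5%), against 27.1%. Of all calls 69.1% were higher, and 52.3% were with quantile normalization.

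All of these calls rest on 2 libraries a side. In the full fit 25 of the 39 had an unadjusted p below 0.05 with limma, against 4762 of all 12907 genes tested. Without any 1 of the 4 libraries the fit kept 1 residual degree of freedom, and nearly all of these calls were lost. The changes of the called genes kept their sign, for example 2.29 to 2.74 for Zbp1 and -0.94 to -0.68 for Ifitm2. With no filter on low values, which tests 16966 genes, 6 rose (Zbp1, Mx1, Mx2, Oas1a, Oas1g and Ifi27) and 0 fell, against 570 and 201 of all genes. There 20 of the 39 had an unadjusted p below 0.05 with limma, against 5122 of all genes. The calls of Usp18, Trim30a, Cmpk2, Pml, Ifi35, Oas2, Oas3, Isg20 and Ifitm2 thus depend on the filter, and that of Ifitm2 also on the trend in the prior.

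**Figure D4:**
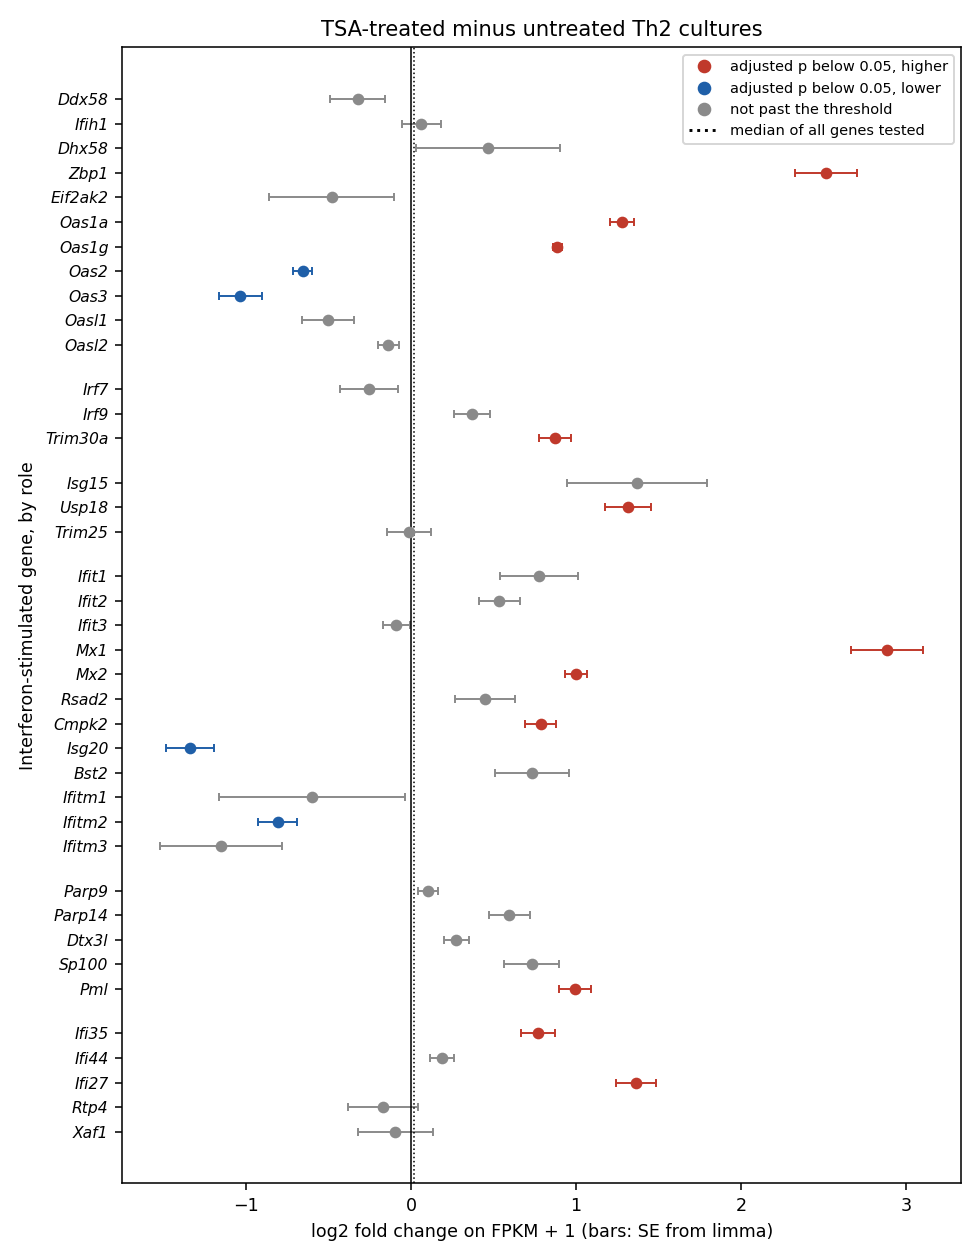
Points give the log2 change on FPKM + 1 from untreated to TSA-treated Th2 cultures for each gene, grouped by role, with the SE from limma as bars and the call as colour. The 11 red points reach from 0.77 (Ifi35) to 2.88 (Mx1), the 4 blue ones from -0.66 (Oas2) to -1.34 (Isg20), and the dotted line is the median of all genes, 0.02.

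Among the sensors, Zbp1 stood out. Zbp1, which senses Z-form nucleic acid and can start necroptosis, lies on chromosome 2 from 173206612 to 173218959 (GRCm38). It had 38.0 and 38.6 FPKM in untreated and 191 and 261 in TSA-treated cultures, a rise of 2.51 (SE 0.19, limma adjusted p = 0.0296), or 5.90-fold between the means. Its TSA-treated level also exceeded CD4 T cells (90.2 and 88.5) and B cells (33.0 and 32.8). The summed level of the 11 sensors went from 99.3 and 96.8 to 242 and 306 FPKM, and the step in Zbp1 alone was at least as large.

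The oligoadenylate synthetases, which lie together on chromosome 5, split in direction. Oas1a had 0.54 and 0.43 FPKM untreated and 2.56 and 2.63 with TSA, and it rose by 1.28 (SE 0.07, limma adjusted p = 0.0258). Its TSA-treated level stayed under that of CD4 T cells (13.1 and 13.2). Oas1g, a near copy of Oas1a whose reads may be shared with it, had 0.20 and 0.15 untreated and 1.18 and 1.16 with TSA. It entered the test only through the treated libraries, so its change of 0.89 (SE 0.03) is given as a description.

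The larger synthetases went the other way. Oas3 had 19.0 and 17.5 FPKM untreated and 9.17 and 7.70 with TSA, and it fell by 1.03 (SE 0.13, limma adjusted p = 0.0393). Oas2 had 0.82 and 0.74 untreated and 0.15 and 0.11 with TSA, and it fell by 0.66 (SE 0.06, limma adjusted p = 0.0324). Untreated and treated libraries did not overlap for any of the 4 synthetases, although Oas2 was under 1 FPKM in all 4. Of the promoters printed, those of both Oas1a, which rose, and Oas3, which fell, hold the GAAA repeat.

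The RNA helicases and the kinase of this group did not pass the test. Ddx58 (RIG-I), the sensor of 5′-triphosphate RNA, had 14.6 and 13.1 FPKM untreated and 12.5 and 9.48 with TSA. Ifih1 had 2.95 and 2.32 against 2.71 and 2.86, a change of 0.06 that was -0.22 with quantile normalization. Dhx58, a regulator of both helicases, had 5.52 and 11.7 against 9.70 and 13.8. Libraries overlapped for Ifih1 and Dhx58, and the SE of Dhx58, 0.43, was nearly as large as its change of 0.47. Eif2ak2 (PKR), the kinase that stops translation, had 16.3 and 11.4 against 12.8 and 6.98 FPKM, also with overlap. Oasl1 and Oasl2 were under 1 FPKM in all 4 libraries, with changes of -0.50 and -0.14.

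Of the factors on the list, only Trim30a passed the test, and Irf9 and Irf7 did not. Trim30a, a TRIM protein known to restrain Toll-like receptor signalling, had 17.1 and 15.3 FPKM untreated and 29.2 and 31.8 with TSA, and it rose by 0.87 (SE 0.10, limma adjusted p = 0.0355). Irf9, the DNA-binding partner of Stat2, had 20.3 and 19.9 against 24.2 and 28.6 FPKM, a change of 0.37 (SE 0.11, limma adjusted p = 0.115) without overlap. Irf7 had 7.31 and 8.76 against 5.75 and 7.46 FPKM, a change of -0.25 (SE 0.18, limma adjusted p = 0.386) with overlap. Irf7 thus stayed far under its CD4 T level of 81.4 and 82.0 in every Th2 library.

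In the ISG15 system the deconjugating protease rose, while the modifier itself varied between libraries. Usp18 had 2.16 and 1.98 FPKM untreated and 5.94 and 7.38 with TSA, a rise of 1.31 (SE 0.14, limma adjusted p = 0.0349), or 3.22-fold between the means. Isg15 had 7.60 and 9.18 untreated and 16.0 and 33.4 with TSA. Its change of 1.37 was larger than that of Usp18, but its treated libraries lay far apart (SE 0.42) and it did not pass (limma adjusted p = 0.128). Trim25, a ubiquitin ligase that acts on RIG-I, had 16.1 and 13.9 against 16.1 and 13.6 FPKM, a change of -0.01 that was 0.01 with quantile normalization.

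The enzymes that attach ISG15 moved in opposite directions. Ube2l6, its conjugating enzyme, had 4.79 and 3.89 FPKM untreated and 32.0 and 38.0 with TSA, and it rose by 2.75 (SE 0.16, limma adjusted p = 0.0264). Uba7, its activating enzyme, had 20.9 and 24.04 against 9.93 and 9.41 FPKM, and it fell by 1.14 (SE 0.10, limma adjusted p = 0.0324). The groups did not overlap for either enzyme.

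Antiviral effectors gave the largest rise on the list. Mx1 had 1.92 and 1.35 FPKM untreated and 15.8 and 21.2 with TSA, and it rose by 2.88 (SE 0.22, limma adjusted p = 0.0301), or 11.3-fold between the means. This brought it to the range of CD4 T cells (15.3 and 15.7) and B cells (20.2 and 20.3). In C57BL/6 mice the Mx1 gene is known to carry a deletion and to make no working protein. Mx2, its neighbour on chromosome 16, had 0.19 and 0.23 FPKM untreated and 1.3 and 1.54 with TSA, and it rose by 0.998 (SE 0.07, limma adjusted p = 0.0282), to a level under that of CD4 T cells (5.71 and 5.68).

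Cmpk2 and its neighbour on chromosome 12, Rsad2, differed in their call. Cmpk2, a mitochondrial nucleotide kinase, had 2.20 and 1.96 FPKM untreated and 4.10 and 4.52 with TSA, and it rose by 0.79 (SE 0.09, limma adjusted p = 0.038). It did not pass with quantile normalization or with no filter on low values. Rsad2 (viperin), which makes a chain-terminating nucleotide, had 0.35 and 0.36 against 0.58 and 1.16 FPKM, a change of 0.45 (SE 0.18, limma adjusted p = 0.189). Whether these 2 genes differ in their response was not tested.

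Isg20 and Ifitm2, both high in Th2 cultures, fell. Isg20 had 112 and 128.5 FPKM untreated and 51.7 and 42.5 with TSA, and it fell by 1.34 (SE 0.15, limma adjusted p = 0.0354). Ifitm2 had 215 and 258 untreated and 138 and 131 with TSA, and it fell by 0.81 (SE 0.12, limma adjusted p = 0.0464). Both stayed above CD4 T cells, which had 27.2 and 27.2 FPKM of Isg20 and 4.46 and 5.16 of Ifitm2. Ifitm3 had 114 and 89.1 against 60.5 and 33.4 FPKM, a change of -1.15 (SE 0.37, limma adjusted p = 0.134) without overlap. Ifitm1 had 18.2 and 44.1 against 14.4 and 23.4 FPKM with overlap. The 3 Ifitm genes lie within one stretch of chromosome 7 and are alike in sequence, so reads may be split between them.

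The other effectors did not pass the test. Bst2 had 91.6 and 109 FPKM untreated and 140.5 and 197 with TSA, a change of 0.73 (SE 0.22, limma adjusted p = 0.125) without overlap. Ifit1 and Ifit2 had 1.77 and 0.90 against 2.68 and 3.20, and 3.63 and 2.94 against 5.25 and 5.13, again without overlap and with changes of 0.78 and 0.54. Ifit3 stayed at 0.31 FPKM or less in all 4 libraries, against 11.1 and 11.2 in CD4 T cells, and it has a near copy that may share its reads. Ifit1 lies within the annotated span of Ifit1bl1. Each treated Ifit level was under that of both CD4 T libraries.

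Nuclear body genes were higher in both treated libraries, and 1 of them passed the test. Pml had 22.9 and 25.6 FPKM untreated and 47.0 and 51.4 with TSA, a rise of 0.99 (SE 0.10, limma adjusted p = 0.0333), to above CD4 T cells (34.5 and 34.5). Sp100 had 55.7 and 48.3 against 97.7 and 76.9 FPKM, a change of 0.73 (SE 0.17, limma adjusted p = 0.0809), and CD4 T cells had 348 and 345. Parp14, an ADP-ribosyltransferase known as a cofactor of IL-4 signalling through Stat6, had 20.2 and 16.8 against 29.3 and 27.3 FPKM, a change of 0.59 (SE 0.12, limma adjusted p = 0.0727). Groups did not overlap for these 3 genes. Dtx3l and Parp9, which form a ubiquitin ligase complex and whose spans overlap by 558 bases on chromosome 16, had changes of 0.27 and 0.10, and 25.9 and 24.5 against 31.6 and 29.8 FPKM of Dtx3l.

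Of the other induced genes, 2 of 5 rose, against 9.26% of all genes. Ifi27, which encodes a small mitochondrial membrane protein, had 67.9 and 78.2 FPKM untreated and 177 and 202 with TSA, and it rose by 1.36 (SE 0.12, limma adjusted p = 0.0324), to above CD4 T cells (125 and 126). Its annotated span is shared with Ifi27l2a, so the reads of the 2 may be mixed. Ifi35, a leucine zipper protein, had 34.6 and 36.1 against 56.5 and 65.8 FPKM and rose by 0.77 (SE 0.10, limma adjusted p = 0.0424). Ifi44 and Rtp4 had 0.15 and 0.03 against 0.27 and 0.21, and 1.11 and 1.16 against 0.59 and 1.27 FPKM. Xaf1, a partner of the apoptosis inhibitor XIAP, had 6.00 and 4.69 against 5.90 and 4.07 FPKM. These 3 genes had changes between -0.17 and 0.19 and stood at 3.85 FPKM or more in CD4 T cells.

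**Figure D5:**
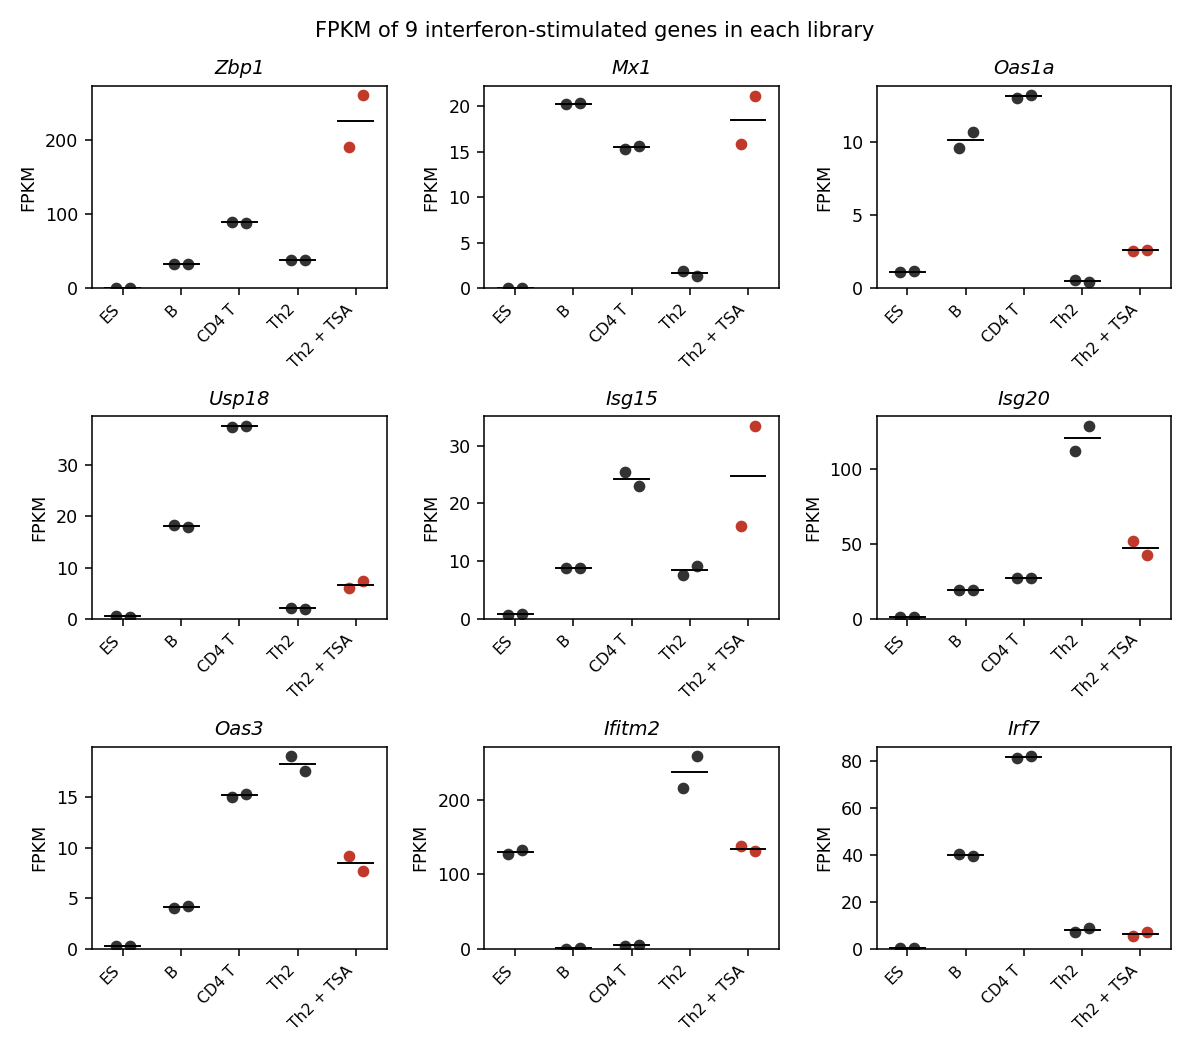
Each panel gives the FPKM of 1 gene in every library (points, TSA-treated in red) with the mean of each group of 2 (line), on a linear axis from 0. Zbp1, Mx1, Oas1a and Usp18 are higher with TSA, Isg15 has 2 treated libraries far apart, Isg20, Oas3 and Ifitm2 are lower, and Irf7 stays low in all 4 Th2 libraries.

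The comparisons of Th2 with CD4 T cells and of TSA-treated with untreated Th2 cultures share the untreated Th2 libraries, so their changes are given side by side only. Mx1 had -2.65 and then 2.88, Zbp1 -1.20 and 2.51, Usp18 -3.65 and 1.31, Oas1a -3.25 and 1.28, and Trim30a -2.24 and 0.87. Isg20 had 2.10 and -1.34, and Ifitm2 5.35 and -0.81. In mean level, 12 of 39 genes stood higher in TSA-treated cultures than in CD4 T cells (Isg15, Isg20, Mx1, Oas1g, Zbp1, Bst2, Ifitm1, Ifitm2, Ifitm3, Ifi35, Ifi27 and Pml). Isg20, Ifitm1, Ifitm2 and Ifitm3 already stood above CD4 T cells in untreated Th2 cultures, and their means were lower with TSA. The share of all genes above CD4 T cells was not taken, and the comparison crosses the kinds of table.

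In the rest of the pathway, the share of genes called under TSA differed from list to list. Of the 19 interferon genes found, only Ifng reached the level for testing, with 9.70 FPKM on average in CD4 T cells, 1.51 and 0.46 in untreated and 2.87 and 2.98 in treated Th2 cultures, a change of 1.04 (SE 0.31, limma adjusted p = 0.124). Ifnb1 was listed at 0.09 and 0 untreated and at 0 in both treated libraries. Of 6 receptors 1 was called higher, against 9.26% of all genes. This was Ifnlr1, the interferon lambda receptor, which rose from 0.05 and 0.01 to 1.55 and 2.30 FPKM (1.49, SE 0.15, limma adjusted p = 0.0336). Ifnar1, of the type I receptor, had 11.1 and 10.4 against 15.5 and 17.8 FPKM without overlap, a change of 0.59 (SE 0.10, limma adjusted p = 0.0571). Whether Ifnlr1 and Ifnar1 differ in their response was not tested.

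Stat2, which acts with Irf9, rose. It had 25.1 and 24.8 FPKM untreated and 45.03 and 43.04 with TSA, and it rose by 0.79 (SE 0.06, limma adjusted p = 0.0301). Its treated level exceeded CD4 T cells, which had a mean of 32.6 FPKM. Irf4, a factor of activated lymphocytes, had 102 and 86.3 FPKM untreated and 206 and 178 with TSA, and it rose by 1.02 (SE 0.14, limma adjusted p = 0.0424). Treated and untreated libraries did not overlap for either gene.

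Of 12 sensor adaptors and kinases only Tlr7, an endosomal receptor of single-stranded RNA, was called, from 0.07 and 0.08 to 2.27 and 3.08 FPKM, a rise of 1.76 (SE 0.14, limma adjusted p = 0.0301). A count of 1 in 12 is near the share of all genes called higher, 9.26%. Among 8 feedback inhibitors and ISG15 enzymes, Ube2l6 rose and Uba7 fell, and Socs1, an inhibitor of Jak kinases, had 136 and 229 against 116 and 267 FPKM. Of 10 interferon-gamma-induced GTPases 7 rose, against 9.26% of all genes, with a median change of 1.80, against 0.02 over all genes. Gbp2 went from 26.3 and 26.7 to 367 and 593 FPKM (4.09, SE 0.28, limma adjusted p = 0.0282).

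Markers of other cells also moved with TSA. The 8 B cell markers summed to 4.45 and 6.46 FPKM untreated and 16.1 and 42.0 with TSA, which is 0.0903%, 0.131%, 0.326% and 0.853% of their level in B cells. All 8 were higher in both treated libraries, against 36.7% of all genes. Of the 8, 2 (Pax5, listed at 0 in both untreated libraries, and Fcer2a) passed the test, against 9.26% of all genes. Taking 0.853% of each gene's own B cell level gave 0.15% to 5.99% of the increase of the 11 genes that rose. This assumes that any B cells in the cultures held these genes at the level of splenic B cells, which was not measured. The 5 natural killer markers summed to 3.46 and 0.93 against 24.8 and 14.0 FPKM. Of these, Klrk1 went from 0.22 and 0.15 to 15.6 and 10.1 and was the only one called. Ncr1 was at 0 in all 4 libraries, which can be a failed match of names, and Klra8 was at 0.02 or less.

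Macrophage and dendritic cell markers stayed low. The 9 macrophage markers summed to 9.13 and 9.13 FPKM untreated and 2.66 and 3.12 with TSA, and 1 of them was called, lower, against 4.14% of all genes. The 6 plasmacytoid dendritic cell markers summed to 2.69 and 1.56 against 5.01 and 3.95 FPKM, with Pacsin1 called higher. Siglech was at 0 throughout, which can be a failed match of names. Of 8 Th2 markers 3 were lower with TSA, against 4.14% of all genes. Gata3 was among them, with 80.3 and 98.1 against 49.01 and 49.24 FPKM. The part of B, natural killer and other cells in the changes with TSA was not tested.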

How the data were processed

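Total RNA (TRIzol, TruSeq RNA v2, per the labels' protocols) was sequenced, and the authors deposited FPKM values per transcript row. The submitters' processing notes name the mm10 build, Cufflinks 2.0.2, TopHat 1.3.2 and Bowtie 0.12.8. Their settings, strand use and handling of multiply mapped reads were not given in the sources used here, and FPKM keeps no counts, so no counting interval is given. Here the highest of a symbol's rows was the gene value, in 21035 rows per table. Testing covered the 12907 genes that reached 1 FPKM in 2 libraries, on log2(FPKM + 1), a scale that understates changes of low genes, with limma 3.58.1 in R 4.3.3 (trend in the prior, two-sided, Benjamini-Hochberg adjustment over all genes). The fit held 7 samples and 2 residual degrees of freedom, which come from the Th2 groups alone. For Th2 against CD4 T cells 12367 genes remained, since genes at 0 in all tables of one kind were left out, as such a 0 can be a failed match of names. All 39 members passed the filter, 6 of them only through ES, B or CD4 T libraries (Ifit3, Oas2, Oasl1, Oasl2, Rsad2 and Ifi44), and Oas1g only through the TSA-treated libraries. Members called under TSA, and up to 4 per role with the largest change there, were given by library. Alternatives covered the gene value, pseudocount, scaling, filter, prior, averaging, replicate block and leaving out each Th2 library. The fit was also run on simulated data with independent noise set by level alone. That run does not show how the calls behave in these libraries. Some results on the Jak, Stat and Irf genes are not reported here. The members and gene lists were chosen with earlier results of these data known.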

Additional observations from a re-analysis of the deposited data

How the results depend on the processing

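Of the calls under TSA, those of Zbp1, Mx1, Mx2, Oas1a, Oas1g and Ifi27 held in every alternative that kept all libraries and tested the gene. With no filter on low values the counts under TSA were 6 members higher and 0 lower, and 570 and 201 of all genes. At an unadjusted p below 0.05 with limma there were 20 members and 5122 of all 16966 genes. With 10 separate samples the calls under TSA were 21 and 7 members and 3902 and 2872 genes, with 3369 genes higher in Th2 than in CD4 T cells. Quantile normalization gave 1027 genes lower with TSA and 3442 higher in Th2 than in CD4 T cells. By the rule of size, B against ES cells gave 18 members with a pseudocount of 5, and CD4 T against B cells gave 0 there and 1 each with quantile normalization and median-ratio scaling. Without 1 library at a time, members higher with TSA ranged from 0 to 1, members lower were 0 to 0, all genes higher 0 to 259 and lower 0 to 14; against CD4 T cells, Th2 members higher ranged from 2 to 3 and lower from 20 to 26, and all genes from 942 to 1574 and from 2246 to 3846. These fits keep 1 residual degree of freedom and assume that a lone library varies like the other groups. Th2 and TSA-treated libraries share replicate numbers, and deviations of same-numbered libraries correlated at 0.577 across genes, but no label ties equal numbers (written after exp in every title) to a shared animal, day or batch. With the replicate block 9 members rose and 2 fell with TSA (1235 and 661 of all genes), where Usp18, Trim30a, Cmpk2, Isg20 and Ifitm2 had no call and Sp100 had one. Signs that turned were those of genes without a call. Against CD4 T cells they were Eif2ak2 (0.19 with quantile normalization, 0.15 with median-ratio scaling, 0.13 with the replicate block, -0.44 to 0.0496 without 1 library) and Bst2 (0.0096 with median-ratio scaling). Under TSA they were, with quantile normalization, Ifih1 (-0.22) and Trim25 (0.0114), and without 1 library Dhx58 (-0.0153 to 0.95), Ifit3 (-0.18 to 0.0059), Trim25 (-0.12 to 0.0961), Xaf1 (-0.32 to 0.13), Ifih1 (-0.0618 to 0.19), Ifitm1 (-1.22 to 0.0182) and Rtp4 (-0.43 to 0.0886). The causes were not tested. With 2 libraries a side the smallest p of an exact permutation test is 0.333, so single genes had no such test.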
